A study of Mus musculus with 6 samples.

Results

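B-lineage cells and their precursors of mouse knee synovium, which lines the joint, were chosen from 6 single-cell libraries by a rule on raw counts. A cell was a member when it carried at least 3 unique molecular identifiers (UMIs, each marking 1 captured transcript molecule) of Cd79a and Cd79b together. It also had at most 5 UMIs of the fibroblast genes Dcn and Col1a2, at most 1 UMI of the T cell genes Cd3e and Cd3g, and at most 10% mitochondrial UMIs. The rule found 185 cells among the 18077 that passed the mitochondrial limit, out of 18491 barcodes. Of these members, 161 (87.0%) lay in 2 libraries, healthy wild type and arthritic Notch3 knockout, and 24 lay in the other 4 libraries.

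Wild-type and Notch3-/- knockout mice were studied both healthy and arthritic, which gave 4 groups, and 2 further arthritic groups received either the isotype control antibody or the anti-Notch3 mAB. The genotype of these last mice was not stated beyond the treatment. Arthritis followed transfer of serum from K/BxN mice, which develop autoimmune arthritis. Each group was 1 library made from the pooled synovium of 10 mice, from live cells sorted with no gate for a cell type, with 7000 cells loaded on a 10x Genomics 3' chip. Genotype, disease, antibody and library therefore cannot be told apart for any difference between libraries, no test between groups was possible, and every interval below covers counting error and leaves out the spread between mice or libraries.

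As background, B cells arise in the bone marrow. Progenitors cut and join the segments of the immunoglobulin heavy chain gene with the Rag1 and Rag2 recombinase, and Dntt adds untemplated bases at the joints. A finished heavy chain is first displayed with the surrogate light chain, made of Vpreb1 (or its copy Vpreb2) and Igll1, together with the signalling pair Cd79a and Cd79b. The cells then divide, rearrange a kappa or lambda light chain gene, and leave the marrow as immature B cells that mature further elsewhere. Mature B cells carry Ms4a1 (CD20), IgD and MHC class II. Where the cells described here matured was not tested.

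The targeted gene was checked first in every library. Notch3, a receptor of the Notch family on chr17:32120820-32166852 (minus strand, mm10), had 4.96 CPM (UMIs of the gene per 1000000 UMIs) over all cells of healthy wild type and 0.288 CPM in healthy knockout. It had 5.55 CPM in arthritic wild type, 0.253 in arthritic knockout, 3.30 in the isotype library and 2.17 in the anti-Notch3 library. B-lineage cells held 0 Notch3 UMIs among 585727, which allows up to 5.12 CPM. The libraries held 11636998 to 24535233 UMIs, with medians of 3988 to 7561 per barcode. Of 18313 distinct barcode sequences 177 occurred in more than 1 library; 2 members shared a barcode with a cell of another library, and 0 barcodes were B-lineage in 2 libraries. Scrublet, a doublet caller, marked 179 of the 18077 cells (0.990%) and 0 members. Its rate was 0.0987% in the isotype library, 0.480% in healthy wild type and 0.459% in arthritic wild type, too low to be read as a working call there.

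The transcripts that chose the cells are given as a description. Cd79a and Cd79b had a median of 12 UMIs per member in healthy wild type, 8.5 in arthritic knockout, 8 in isotype, 6 in arthritic wild type, 5.5 in healthy knockout and 4 in anti-Notch3. Just inside the limit, 12 cells had exactly 3 UMIs of the pair, 9 of them with another B-lineage transcript. Just outside it, 24 cells had 2 UMIs, 6 of them with another B-lineage transcript, and 12 of these 24 came from the anti-Notch3 library. A further 6 cells failed on the fibroblast genes alone and 0 on the T cell genes alone. Cd79a lies on chr7:24897381-24902197 (plus strand) and Cd79b on chr11:106311341-106314762 (minus strand).

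Transcripts that the rule did not use belonged to the B lineage. Vpreb3, whose product binds the heavy chain in precursors, was seen in 69.7% of members, Ms4a1 in 45.4%, and Pax5, the factor that holds B cell identity, in 35.7%. The immunoglobulin genes Ighm and Igkc were seen in 97.3% and 88.1%. Fibroblasts (at least 20 UMIs of Dcn and Col1a2, 10776 cells) should lack these transcripts and served as the background: Vpreb3 was seen in 0.0835% of them, Ms4a1 in 0.0928%, Pax5 in 0.0464%, Ighm in 1.24% and Igkc in 0.223%. The fibroblasts were deeper, with a median of 5775.5 UMIs against 2191 in members. Ebf1, a factor of early B cells, was seen in 92.4% of members and 88.3% of fibroblasts, so its presence did not mark the lineage here. The antigen presentation genes H2-Aa and Cd74 were seen in 59.5% and 80.5% of members and in 8.69% and 11.6% of fibroblasts. Of 5 granulocyte precursor genes and 4 osteoblast genes 0 were detected in members. T cell transcripts were limited by the rule itself, and Cd3d, Cd3e, Cd3g, Trac and Trbc2 had 0 UMIs in members.

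Some members also carried transcripts of other cells. At least 10 UMIs of C1qa, C1qb and C1qc, complement genes of macrophages, were found in 8 members: 3 of 85 in healthy wild type and 5 of 11 in the anti-Notch3 library. These 8 cells held all 452 C1qa UMIs of the members and 1030 of 1155 Lyz2 UMIs, and had 6475 to 12613 UMIs each. Of the 8, 6 had neither Cd79a nor any of 10 further B-lineage transcripts and were members through Cd79b alone; 1 was from healthy wild type and 5 from anti-Notch3. For these 6 the data went against the label. Without the 8 cells 177 members remained, with 6 in the anti-Notch3 library. A further 2 members were rich in haemoglobin transcripts: 1 cell held 1698 of the 1702 Hbb-bs UMIs of healthy wild type, and 1 cell held 1072 of the 1076 in arthritic knockout.

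Promoter sequences are shown for the 4 genes that carry the description of the lineage and of its precursors and that had an entry: Cd79a, Vpreb1, Igll1 and Vpreb3. Each is the 250 bases before the RefSeq start of the gene on its own strand, 5' to 3', on build GRCm38.p6. Distances to the start below are from that RefSeq start. The gene positions printed in this report are from GENCODE, and the Igll1 start is the same in both. By the GENCODE positions the Vpreb1 and Vpreb3 windows lie inside the genes, and the Cd79a window runs past the gene start. Capitals mark matches to 3 motifs, searched on both strands: the E-box of the early B cell factor E2A, the core of the Ets factor PU.1 and the octamer of Oct factors. The E-box was searched as CAGCTG, which is its own reverse complement, and as CAGGTG with the reverse complement CACCTG. The PU.1 core was searched as GAGGAA with the reverse complement TTCCTC, and the octamer as ATGCAAAT with the reverse complement ATTTGCAT.
Cd79a, chr7:24897247-24897496 (plus strand): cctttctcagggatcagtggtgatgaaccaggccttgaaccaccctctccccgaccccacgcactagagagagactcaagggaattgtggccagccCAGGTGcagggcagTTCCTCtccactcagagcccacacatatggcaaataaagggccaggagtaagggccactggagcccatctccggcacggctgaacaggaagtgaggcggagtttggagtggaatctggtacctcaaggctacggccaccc
Vpreb1, chr16:16869256-16869505 (minus strand): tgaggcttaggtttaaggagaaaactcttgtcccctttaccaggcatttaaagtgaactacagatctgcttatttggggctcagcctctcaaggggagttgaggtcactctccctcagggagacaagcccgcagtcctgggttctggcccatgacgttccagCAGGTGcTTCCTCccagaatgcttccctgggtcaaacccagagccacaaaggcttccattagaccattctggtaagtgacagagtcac
Igll1, chr16:16863986-16864235 (minus strand): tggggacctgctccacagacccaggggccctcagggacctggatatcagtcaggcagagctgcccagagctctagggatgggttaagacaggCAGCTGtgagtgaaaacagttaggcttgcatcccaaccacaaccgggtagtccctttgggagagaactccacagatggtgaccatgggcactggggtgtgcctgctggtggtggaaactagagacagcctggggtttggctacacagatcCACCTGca
Vpreb3, chr10:75948050-75948299 (plus strand): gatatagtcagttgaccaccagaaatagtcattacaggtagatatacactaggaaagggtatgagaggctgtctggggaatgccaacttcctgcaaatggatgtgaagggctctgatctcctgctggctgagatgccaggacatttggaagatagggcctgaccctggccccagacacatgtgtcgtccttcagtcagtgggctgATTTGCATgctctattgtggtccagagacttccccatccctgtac
Cd79a and Vpreb1 each had CAGGTG followed by TTCCTC, at 154 and 140 bases before the start in Cd79a and at 88 and 81 bases before it in Vpreb1. Igll1 had CAGCTG at 158 bases and CACCTG at 8 bases before the start. Vpreb3 had the octamer ATTTGCAT at 45 bases. Among 32851 promoter windows of the same length the E-box letters occurred in 27.7%, the PU.1 core in 23.3% and the octamer in 1.60%, and a match describes letters, not a bound site. Vpreb1 and Igll1 lie close together on chromosome 16 (16868403-16870843 and 16860671-16863985, minus strand).

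B-lineage cells made up a similar share of 2 libraries that differ in both genotype and disease, and were rare in the rest. Healthy wild type had 85 members among 2917 cells, 2.91% (95% exact binomial interval 2.33 to 3.59), and arthritic knockout had 76 among 2656, 2.86% (2.26 to 3.57). Healthy knockout had 10 among 5000, 0.200% (0.096 to 0.367), and anti-Notch3 had 11 among 2068, 0.532% (0.266 to 0.950). Isotype had 2 among 3040, 0.0658% (0.008 to 0.237), and arthritic wild type had 1 among 2396, 0.0417% (0.001 to 0.232). Within the healthy pair the knockout was thus lower, and within the arthritic pair it was higher. These shares were in view when the cells were chosen, so the contrast is a description. The intervals cover counting error and do not test it. The anti-Notch3 share exceeded the isotype share by 0.466 percentage points, but 5 of its 11 members were the C1q-rich cells described above.

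**Figure D1:**
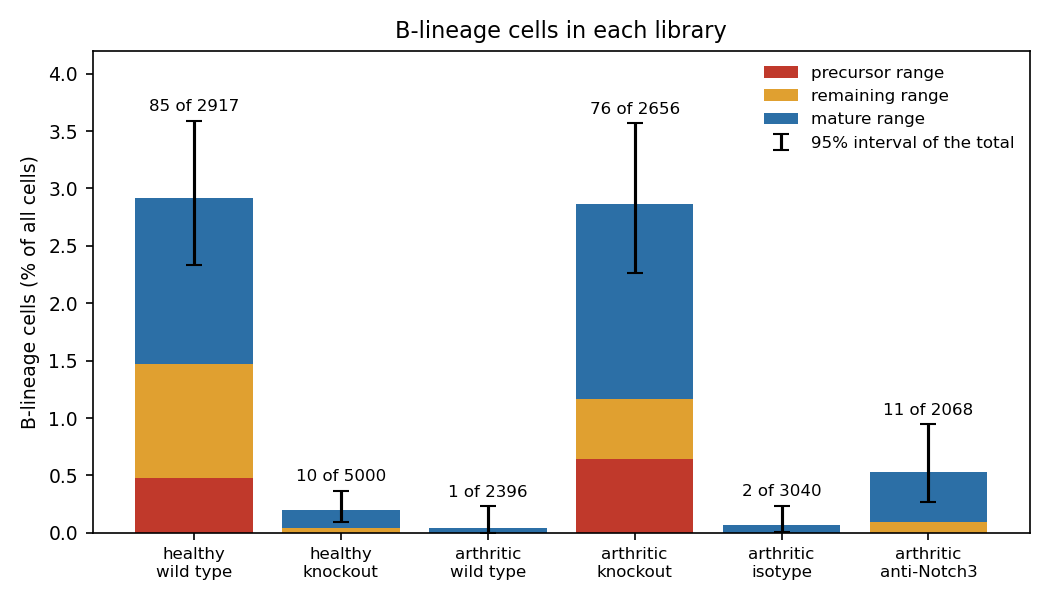
B-lineage cells as a percentage of all cells in each of the 6 libraries, stacked by range (precursor, remaining and mature, defined in the text), with the exact 95% binomial interval of the total and the number of members above each bar. Healthy wild type (2.91%) and arthritic knockout (2.86%) stand above the other 4 libraries, and precursor-range cells appear in these 2 libraries alone.

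Transcripts of red cell and neutrophil precursors were measured beside these shares, since such cells also arise in marrow. The summed level of 7 erythroid genes, haemoglobin genes among them, in cells other than members was 4743 CPM in healthy wild type and 2213 CPM in arthritic knockout, against 0.097 to 76.5 CPM in the other 4. Cells with at least 3 UMIs of the secondary granule genes Camp, Ngp and Ltf numbered 14 in healthy wild type, 26 in arthritic knockout, 4 in arthritic wild type, 2 in isotype, 1 in healthy knockout and 0 in anti-Notch3. The 6 neutrophil genes together had 1042 and 3818 CPM in healthy wild type and arthritic knockout, 892 CPM in arthritic wild type, and 1.05 to 103 CPM in the other 3. Granulocyte precursor cells (Elane, Mpo, Prtn3 and Ctsg) numbered 9 in arthritic knockout, 3 in healthy wild type, 2 in anti-Notch3, 1 in arthritic wild type and 0 in healthy knockout and isotype. Osteoblast cells were 1.61% of healthy wild type, 3.95% of arthritic knockout, and 4.80% to 7.82% of the other 4. The summed level of 4 osteoblast genes was lowest in healthy wild type at 37.1 CPM, while arthritic knockout had 135 CPM, below healthy knockout (181) and above the other 3 (93.0 to 117). T cells (at least 3 UMIs of Cd3e and Cd3g) made up 1.46% of arthritic wild type, where B-lineage cells were scarcest, 0.954% of isotype, 0.677% of anti-Notch3, 0.651% of healthy wild type, 0.452% of arthritic knockout and 0.320% of healthy knockout. The part of these other cells in the B-lineage shares was not tested.

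Members were sorted into 3 ranges by their own counts; these are ranges, not cell types. The precursor range had at least 2 UMIs of Vpreb1, Vpreb2, Igll1, Dntt, Rag1 and Rag2. The mature range had at least 4 UMIs of Ms4a1, Ighd, Fcer2a, Cr2, H2-Aa and H2-Ab1 and was outside the precursor range, and all other members were the remaining range. The 185 members split into 31, 107 and 47 cells. Healthy wild type held 14 precursor, 42 mature and 29 remaining cells, and arthritic knockout held 17, 45 and 14. The other 4 libraries held 0 precursor-range cells; counts of 0 allow up to 0.06% of cells in healthy knockout, 0.125% in arthritic wild type, 0.0987% in isotype and 0.145% in anti-Notch3. The precursor range was 0.480% of all cells in healthy wild type (0.263 to 0.804) and 0.640% in arthritic knockout (0.373 to 1.02). Many cells lay near the precursor limit: 5 members had 2 precursor UMIs and 19 had 1, of them 4 and 12 in healthy wild type and 1 and 5 in arthritic knockout. With a limit of 1 UMI, 30.6% of healthy wild-type members would be in the precursor range. At the mature limit 3 members had 4 UMIs and 4 had 3.

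**Figure D2:**
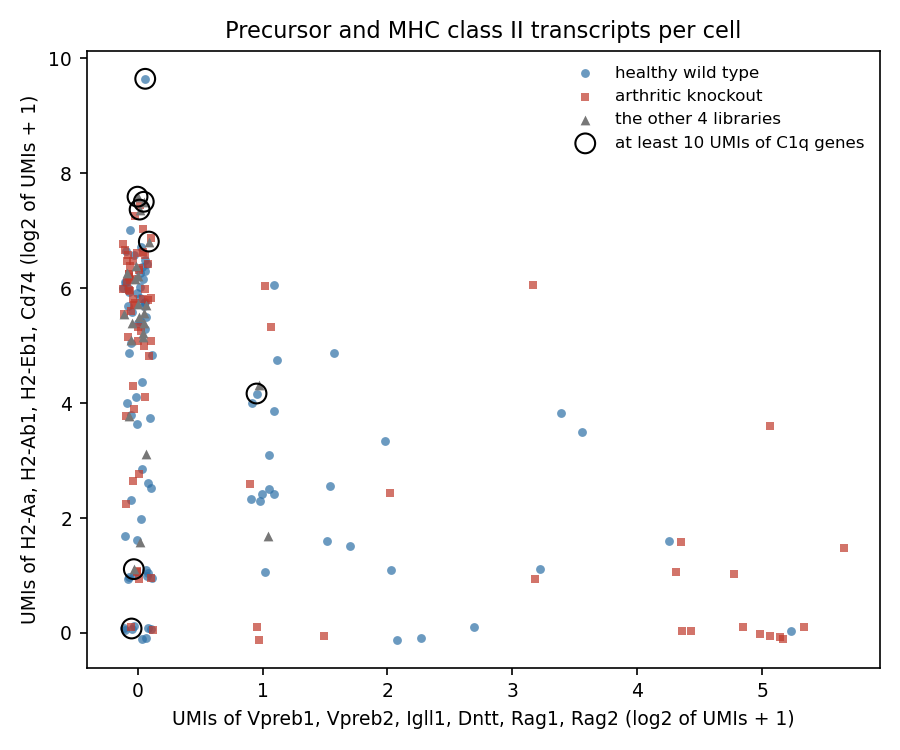
UMIs of the 6 precursor genes (horizontal axis) against UMIs of 4 MHC class II genes (vertical axis) in each of the 185 members, both as log2 of UMIs + 1 with a small random shift; colours mark the library and open circles the 8 cells with at least 10 UMIs of C1q genes. Cells with many precursor UMIs mostly lie near 0 on the MHC class II axis, and cells of the other 4 libraries lie at the left.

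Among members, the precursor range was 16.5% in healthy wild type (9.31 to 26.1) and 22.4% in arthritic knockout (13.6 to 33.4), with overlapping intervals. Depth differed: precursor-range cells had a median of 5943.5 UMIs in healthy wild type and 2436 in arthritic knockout. After each cell was thinned to 1000 UMIs, with 2 shallower arthritic knockout cells left out, the shares were 7.06% (2.63 to 14.7) and 21.6% (12.9 to 32.7). The mature range was 49.4% and 59.2% of members, or 37.6% and 58.1% after thinning. The remaining range was 34.1% and 18.4%, or 55.3% and 20.3% after thinning. Cycling cells, with at least 3 UMIs of 10 proliferation genes such as Mki67 and Top2a, were 17 of 85 members in healthy wild type (20.0%, 12.1 to 30.1) and 6 of 76 in arthritic knockout (7.89%, 2.95 to 16.4). They were 14.1% and 6.76% after thinning. Cycling was found in 8 of 14 precursor-range cells and 4 of 42 mature-range cells of healthy wild type, and in 4 of 17 and 0 of 45 of arthritic knockout.

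The precursor range held different cells in the 2 libraries. In arthritic knockout, 15 of 17 cells had at least 3 UMIs of the surrogate light chain genes Vpreb1, Vpreb2 and Igll1, and 8 of these 15 carried Dntt. In healthy wild type, 6 of 14 did, all 6 of them cycling, with a median of 10512.5 UMIs per cell, and 1 carried Dntt. The other 8 precursor-range cells of healthy wild type were chosen through Rag1 or Rag2: they had 20 Rag1 UMIs, all carried at least 5 Igkc UMIs, and 2 of them cycled. The other 2 of arthritic knockout were mixed, with 1 Rag1, 1 Rag2, 2 Igll1 and 1 Vpreb1 UMIs between them. Vpreb1 had 35 UMIs in healthy wild type and 163 in arthritic knockout, and 0 in members of the other 4 libraries. Igll1 had 48 and 189 UMIs, and Dntt 1 and 27, again with 0 in members of the other 4. Within the cells with at least 3 surrogate light chain UMIs, Igll1 stood at 726 CPM (529 to 971) in healthy wild type and 2711 CPM (2336 to 3129) in arthritic knockout, and Vpreb1 at 548 CPM (380 to 766) and 2349 CPM (2001 to 2740). These genes chose the cells, so the values are a description.

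Some genes outside the choice had different pooled levels in the same groups of cells. The intervals here leave out the spread between cells, and all 6 cells of healthy wild type cycled, against 4 of the 15 of arthritic knockout. Mki67, a marker of division, had 887 CPM (668 to 1155) in the 6 surrogate light chain cells of healthy wild type and 188 CPM (100.4 to 322) in the 15 of arthritic knockout. Its 13 UMIs in the 15 came from 4 cells, and it is among the genes that set the cycling range. Cd24a, a surface glycoprotein of young B cells, had 3967 CPM (3487 to 4495) and 2218 CPM (1881 to 2599). Gimap6, a lymphocyte GTPase, went the other way with 32.3 CPM (3.91 to 117) and 362 CPM (235 to 535), and so did Sox4, with 80.6 CPM (26.2 to 188) and 391 CPM (258 to 569). Igkc, the kappa constant region, had overlapping intervals, 806 CPM (598 to 1063) and 522 CPM (366 to 723); it was seen in 5 of the 6 and in 5 of the 15 cells, and the 6 were the deeper. The 8 Rag-chosen cells of healthy wild type stood apart from the 6 surrogate light chain cells of the same library: Igkc was at 4563 CPM (3828 to 5397) against 806 CPM (599 to 1063), Sox4 at 839 CPM against 80.6 CPM, and Vpreb3 at 3556 CPM against 1726 CPM. Il7r, the receptor for the precursor growth factor interleukin 7, had 52 UMIs in healthy wild type members and 11 in arthritic knockout. Kit had 0 UMIs in all members and Flt3 and Cd34, genes of earlier progenitors, 3 and 2.

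Vpreb1 also had UMIs outside the lineage. It was seen in 0.400% to 2.06% of fibroblasts, 2.06% in the isotype library and 1.35% in the anti-Notch3 library, where no member carried it. Igll1 was seen in 0 of 10776 fibroblasts. The Vpreb1 and Vpreb2 transcripts are 97.5% identical over 686 aligned bases, so the division of reads between them is uncertain, with the strand used in counting not given in the sources used here.

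Cells of the remaining range were poor in the genes of both limits. They had the highest Ebf1 level of the 3 ranges in both libraries, and the highest Ighm level in arthritic knockout. The 29 cells in healthy wild type and 14 in arthritic knockout had 4 and 0 Ms4a1 UMIs and 7 and 2 H2-Aa UMIs, which the range limits fix. Ebf1 was at 3205 and 4255 CPM, above the precursor range (2004 and 2663 CPM) and the mature range (1718 and 1485 CPM) of the same libraries. Ighm was at 5155 and 5932 CPM, against 3845 and 2295 CPM in the precursor range and 4937 and 3712 CPM in the mature range. The healthy wild-type values include the 3 C1q-rich cells, 2 of them in the mature range. These deep cells held little Ighm: 1522 of the 1556 UMIs of the library remained without them. The order of the remaining and mature ranges for Ighm in healthy wild type is therefore uncertain. Igkc at 4622 CPM lay between the other ranges in healthy wild type (2026 and 9970 CPM), and at 12314 CPM above both in arthritic knockout (860 and 9215 CPM). Vpreb3 was at 2311 and 3805 CPM, against 2320 and 2568 CPM in the precursor range and 1621 and 518 CPM in the mature range. Hmgb2, a chromatin protein abundant in dividing cells, was at 3167 and 3805 CPM there, 1568 and 295 CPM in the mature range, and 4160.5 and 1939 CPM in the precursor range. Cycling cells were 5 of the 29 and 2 of the 14.

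**Figure D3:**
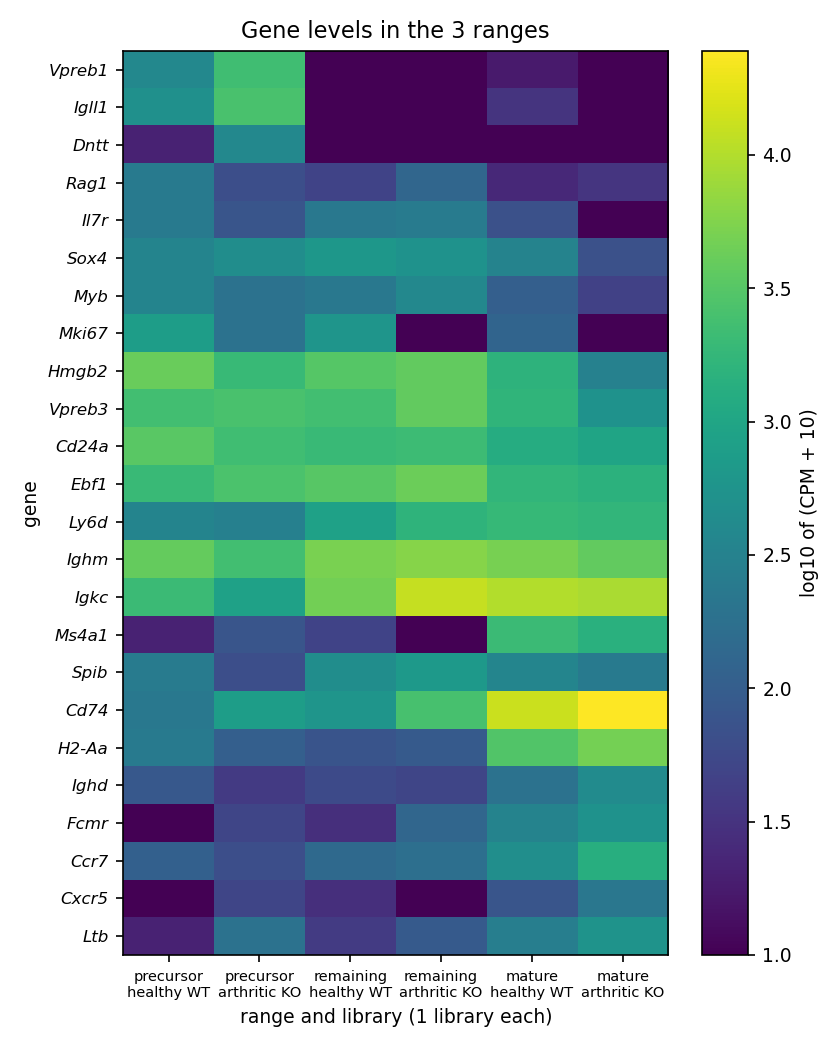
Levels of 24 genes (rows) in the precursor, remaining and mature ranges of the healthy wild-type and arthritic knockout libraries (columns, 1 library each), as log10 of CPM + 10. Surrogate light chain genes and Dntt are at the top left, Vpreb3 and Ebf1 run through all ranges, and MHC class II, Fcmr and Ccr7 are highest in the mature range.

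Mature-range cells differed among themselves, in the same direction in both libraries for the genes named here. A split at 2 Vpreb3 UMIs, chosen after the values were seen, and without the C1q-rich and cycling cells, gave 20 Vpreb3-high and 16 Vpreb3-low cells in healthy wild type and 11 and 34 in arthritic knockout. Vpreb3-high cells had more Ms4a1, with 3742 CPM (3262 to 4274) against 1501 CPM (1124 to 1963) in healthy wild type and 3251 CPM (2503 to 4151) against 875 CPM (662 to 1133) in arthritic knockout. Ighm was at 7897 against 2549 CPM and at 6806 against 2777 CPM. Cd24a was at 1699.5 against 623 CPM and at 1778 against 675 CPM. Spib, an Ets-family factor, was at 670 against 56.6 CPM and at 711 against 92.1 CPM. Vpreb3-low cells had more H2-Aa, with 4389.6 against 961 CPM in healthy wild type and 5738 against 1625 CPM in arthritic knockout, and more Ccr7, the receptor that guides cells into lymph nodes, with 1104 against 395 CPM and 1504 against 813 CPM. Hes1, a target of Notch receptors, was seen in 9 of 20 Vpreb3-high and 0 of 16 Vpreb3-low cells of healthy wild type, and in 3 of 11 and 3 of 34 of arthritic knockout.

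Light chain transcripts were counted per cell from Igkc and from the lambda genes Iglc1, Iglc2 and Iglc3, whose counts are summed. The 3' kit tags each molecule once, so gene length does not enter. Among 137 members with at least 10 light chain UMIs, lambda made up more than 50% in 9 (6.57%, 3.05 to 12.1). These were 5 of 67 cells in healthy wild type (7.46%, 2.47 to 16.6) and 4 of 54 in arthritic knockout (7.41%, 2.06 to 17.9). In 60 of the 137 members lambda made up 10 to 50%, and in 68 less than 10%. Some cells above 50% also held Igkc, 1 of healthy wild type with 12 Igkc and 13 lambda UMIs. The values are thus shares of transcripts, not calls of 1 light chain per cell. The part of stray transcripts in them was not tested. In arthritic knockout 3 mature-range cells had 26, 31 and 33 lambda UMIs and 0 Igkc UMIs. The 17 members with no light chain UMI were 10 of the 17 precursor-range cells of arthritic knockout, 1 of the 14 of healthy wild type, and 6 C1q-rich cells. Igkc lies on chr6:70726435-70726966 (plus strand), Iglc1 on chr16:19061618-19062071 and Iglc2 on chr16:19198396-19200351 (minus strand). Switched heavy chains were almost absent: Ighg1, Ighg2b and Igha had 1 UMI each, and Ighg2c, Ighg3 and Ighe 0. The plasma cell genes Jchain, Tnfrsf17 and Derl3 had 0 UMIs. A rule on Cd79 transcripts can miss plasma cells, which carry few of them.

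**Figure D4:**
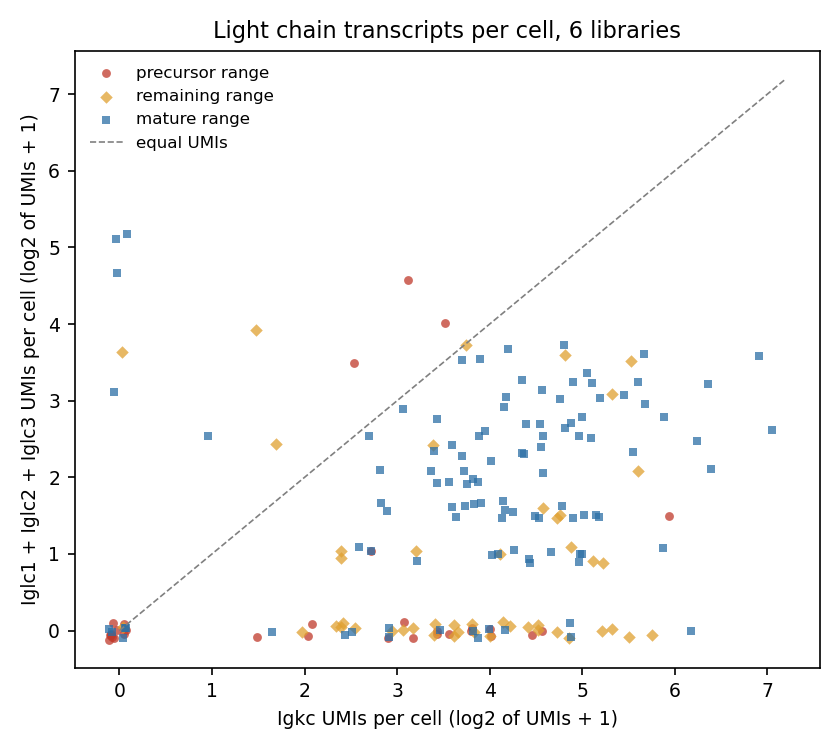
Igkc UMIs (horizontal axis) against summed Iglc1, Iglc2 and Iglc3 UMIs (vertical axis) in each of the 185 members, as log2 of UMIs + 1 with a small random shift; colours mark the range and the dashed line equal UMIs. Most cells lie below the line, 9 of the 137 cells with at least 10 light chain UMIs lie above it, and 11 precursor-range cells lie at the origin.

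Gene levels were compared between the 2 libraries with enough members, healthy wild type and arthritic knockout; in none of the 5 pairs of the study did both libraries hold at least 30 members. This pair differs in disease, genotype and library at once. Ratios are of CPM over all members of a library with 0.5 UMIs added, for the 3554 genes with at least 20 UMIs in total, and a gene was counted when at least 2-fold apart. Of these genes 571 (16.1%) were 2-fold apart, 148 (4.16%) higher in arthritic knockout and 423 (11.9%) higher in healthy wild type. The median log2 ratio over all 3554 genes was -0.16, and list medians are to be read beside it. With that shift removed by median-of-ratios scaling, 232 of 544 genes apart were higher in arthritic knockout, 42.6% against 25.9% before. Arthritic knockout members were shallower, with 182523 UMIs in all against 330859. The lists below were chosen with earlier results of these data known.

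Antigen presentation genes stood higher in arthritic knockout. Of 9 MHC class II genes measured, 5 were 2-fold higher there and 0 in healthy wild type, with a median of 1.13 on the log2 scale. Cd74, the invariant chain, had 1820 UMIs in healthy wild type and 2203 in arthritic knockout, a log2 ratio of 1.13 (95% counting interval 1.04 to 1.22). The peptide-loading regulators H2-Oa and H2-Ob were at 1.58 (0.62 to 2.62) and 1.45 (0.83 to 2.10), H2-DMb1 at 1.49 (0.54 to 2.51), while H2-Aa, H2-Ab1 and H2-Eb1 were at 0.84, 0.67 and 0.32. The 3 C1q-rich cells held 795 of the 3071 UMIs of Cd74, H2-Aa, H2-Ab1 and H2-Eb1 in healthy wild type. Without them 7 of 9 genes were 2-fold higher in arthritic knockout, against 4.68% of all genes, with a median of 1.29: Cd74 was at 1.29 (1.20 to 1.39), H2-Aa at 1.48 (1.25 to 1.71), H2-Ab1 at 1.10 and H2-Eb1 at 0.95. Within the mature range alone, where 343 of 1546 genes (22.2%) were apart and 103 (6.66%) higher in arthritic knockout, 3 of 9 were 2-fold higher and the median was 0.92, or 3 of 9 (5.78% of all genes) and 0.98 without the C1q-rich cells. The mature range, without C1q-rich and cycling cells, was made up differently, with 16 of 36 cells Vpreb3-low in healthy wild type and 34 of 45 in arthritic knockout. Within Vpreb3-low cells Cd74 was at 20447 CPM (18982 to 21994) in healthy wild type and 25654 CPM (24439 to 26914) in arthritic knockout, while H2-Ab1 was at 5721 CPM (4959 to 6566) and 5002 CPM (4474 to 5576), the lower value in arthritic knockout. Within Vpreb3-high cells Cd74 was at 11485 and 21027 CPM and H2-Ab1 at 1013 and 2539 CPM. The median of 15 mature B cell genes was 0.23. Of them, 6 were higher in arthritic knockout, against 4.16% of all genes, and 0 in healthy wild type. They were the homing receptors Ccr7 (86 and 122 UMIs, log2 ratio 1.36) and Cxcr5 (11 and 21, 1.76), the IgM receptor Fcmr (45 and 51, 1.04), the lymphotoxin gene Ltb (41 and 61, 1.43), Gimap6 (41 and 58, 1.35) and Cd74. Without the C1q-rich cells Fcmr was at 0.91. Within the mature range 3 of 14 mature B cell genes were higher in arthritic knockout and 1 in healthy wild type, with a median of 0.29. Gimap6 was at 0.52 (-0.26 to 1.29) in that range and Fcmr at 0.72. Without the C1q-rich cells the mature range gave 2 and 1 of 14, with a median of 0.05. In the mature range Ccr7 was at 1.51 (1.06 to 1.98), and Ighd, the IgD constant region, at 1.23 (0.46 to 2.05), or 1.27 and 0.99 without those cells. Ighd, H2-Aa and H2-Ab1 are among the genes that set the mature range. Their ratios are therefore not independent of that range or of its share of members.

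Homing genes differed in both directions: of 9, 4 were higher in arthritic knockout (Ccr7, Cxcr5, S1pr1 at 1.61 and Gpr183 at 1.13) and 2 in healthy wild type. The latter were Cxcr4, which holds B cells in the marrow, with 115 and 24 UMIs (log2 ratio -1.38, -2.10 to -0.76), and the integrin Itgb1 (27 and 2 UMIs). S1pr1, which guides exit into blood, had 17 and 29 UMIs. Gpr183 had 9 and 11 UMIs, with an interval that included 0 (-0.26 to 2.60). Of all genes 4.16% were higher in arthritic knockout and 11.9% in healthy wild type. Without the C1q-rich cells 3 of 8 homing genes were higher in arthritic knockout and 2 in healthy wild type. Within the mature range 3 of 6 and 0 of 6 were. Cxcr4 was there at -0.73 (-1.63 to 0.05), or -0.91 (-1.81 to -0.12) without the C1q-rich cells. Beside these values, Cxcl12, the ligand of Cxcr4, was at 2981 CPM in the other cells of healthy wild type and 2077 CPM in those of arthritic knockout.

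Precursor lists held genes apart in both directions, to be read beside the shares of all genes: 4.16% higher in arthritic knockout and 11.9% in healthy wild type. Of 3 surrogate light chain genes measured, 2 were higher in arthritic knockout, Vpreb1 with a log2 ratio of 3.06 (2.54 to 3.65) and Igll1 with 2.82 (2.37 to 3.32), while Vpreb3 was at -0.19 with 673 and 325 UMIs. Of 4 recombination genes 1 was higher, Dntt at 5.05 (3.01 to 11.0), and Rag1 was at -0.68 with 27 and 9 UMIs. Of 6 early progenitor and interleukin 7 genes 2 were higher in healthy wild type, Il7r at -1.33 (-2.47 to -0.43) and the scaffold Akap12 at -1.74 (-2.80 to -0.90). Of 21 cell cycle genes 6 were higher in healthy wild type and 0 in arthritic knockout, with a median of -0.73. Median-of-ratios scaling gave 3 and 0, with a median of -0.57. Under that scaling 312 of all 3554 genes were higher in healthy wild type. Mki67 had 147 and 13 UMIs (log2 ratio -2.59, -3.58 to -1.82) and Top2a 182 and 45 (-1.15, -1.66 to -0.68, or -0.99 under median-of-ratios scaling). The same transcripts set the precursor and cycling ranges above, so these ratios are not independent of those shares.

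Few receptor genes were 2-fold apart, and the median of the signalling list lay below that of all genes. Of 9 B cell receptor and coreceptor genes 1 was apart, Cd180 (10 and 20 UMIs, log2 ratio 1.82), with a list median of 0.05. Of 11 signalling genes, with a list median of -0.87, 3 were higher in healthy wild type, against 11.9% of all genes. They were the kinase Syk (-1.13, -1.97 to -0.42), the phospholipase Plcg2 (-1.18, -3.33 to 0.29) and the adaptor Dapp1 (-1.33, -3.47 to 0.11). Plcg2 (18 and 4 UMIs) and Dapp1 (20 and 4 UMIs) had intervals that include 0, and under median-of-ratios scaling Syk was at -0.97, under 2-fold. Within the mature range 1 of 8 signalling genes was higher in healthy wild type, against 15.5% of all genes, with a median of -0.46. Of 19 transcription factors 3 were higher in healthy wild type, a share near the 11.9% of all genes. They were Pax5 (74 and 15 UMIs, -1.41), Ikzf1 (-1.41) and Bach2 (-1.09, or -0.93 under median-of-ratios scaling). Within the mature range 7 of 17 were higher in healthy wild type, against 15.5% of all genes, and 0 in arthritic knockout, with a median of -0.85. That range was made up differently in the 2 libraries, with 4 cycling cells in healthy wild type and 0 in arthritic knockout. Its other cells, without the C1q-rich ones, were 20 Vpreb3-high and 16 Vpreb3-low against 11 and 34. Over all members Lef1 was higher in arthritic knockout (1.07), and the list median was -0.57. Of 6 immunoglobulin constant genes Iglc2 (1.10) and Iglc3 (1.42) were higher in arthritic knockout. Without the C1q-rich cells Lef1 was at 0.95 and Iglc2 at 0.98, under 2-fold. The 3 lambda cells without Igkc held 39 of its 96 Iglc3 UMIs. Of 6 survival receptors, 12 activation genes and 5 plasma cell genes 0 were 2-fold apart, and of 5 heat shock genes 1 was, Hspa1a, higher in healthy wild type (29 and 5 UMIs, or 12 and 5 without the C1q-rich cells, too few for a ratio). Without those cells the survival gene Bcl2l1 was at -1.09. Notch receptors were too low to compare: Notch1 had 13 and 2 UMIs, Notch2 9 and 2, and Notch4 0.

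**Figure D5:**
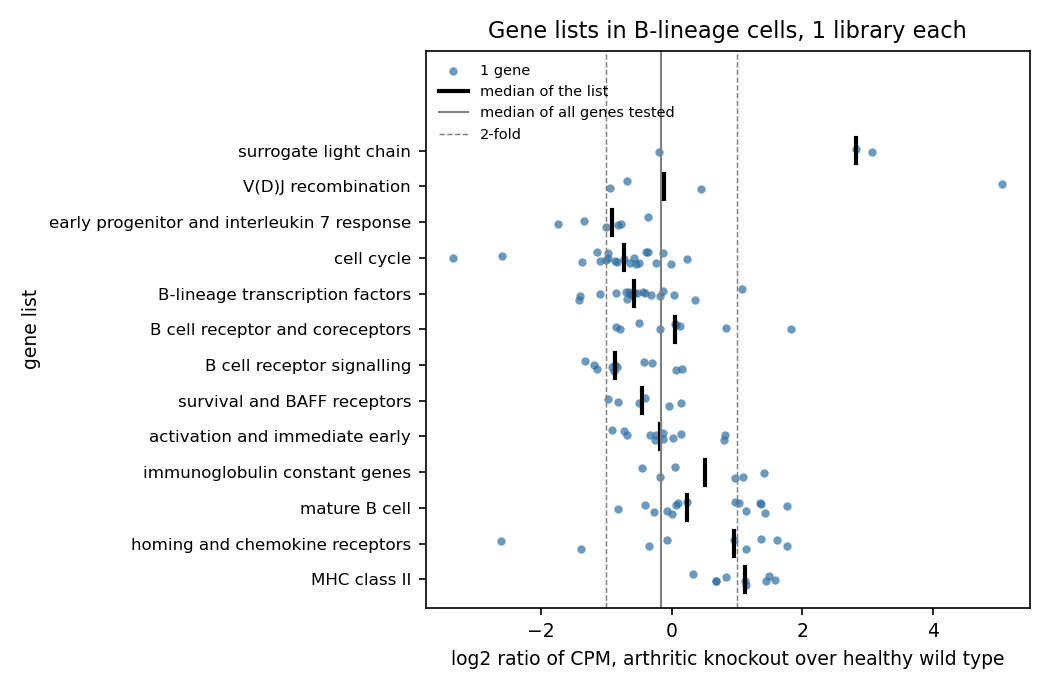
Log2 ratio of CPM, arthritic knockout over healthy wild type (1 library each), for every measured gene (points) of the lists (rows), with each list's median as a bar, the median of all 3554 genes (-0.16) as a grey line and dashed lines at 2-fold. MHC class II and homing genes lie mostly to the right of the grey line, and cell cycle and receptor signalling genes mostly to its left.

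Outside the lists, the genes most apart in either direction were often carried by few cells. In arthritic knockout Wfdc17 (23 UMIs) and Saa3 (27 UMIs) came from 1 cell each, and Hp (18 UMIs) from 2 cells. Vps37b, a gene of endosomal sorting, was spread more widely: 66 UMIs in 27 of 76 arthritic knockout cells against 19 UMIs in 18 of 85 healthy wild-type cells, a log2 ratio of 2.63, with 26 of the 27 cells in the mature range. Ly6a (Sca-1) was in 12 and 5 cells, with 24 and 5 UMIs. In healthy wild type, C1qa, C1qb, C1qc, Cxcl2, Ccl2, Pf4, Dab2, F13a1 and Ccl24 were among the 10 genes most apart, and nearly all of their UMIs lay in the 3 C1q-rich cells (124 of 124 for C1qa, 172 of 172 for Cxcl2, 111 of 111 for Ccl2). Of 4 myeloid genes measured all 4 were higher in healthy wild type. Without the C1q-rich cells the log2 ratio of Lyz2 was 2.17, against -2.01 with them. This value also rests on few cells. In arthritic knockout 2 members held at least 20 of the 90 Lyz2 UMIs each, and 17.1% of members carried any. In healthy wild type 1 cell held at least 20 of the 33 UMIs left.

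The exception was 4930597A21Rik, a long noncoding RNA on chr11:44586317-44591229 (plus strand), whose end lies 26.1 kb before the start of Ebf1 on the same strand. It had 55 UMIs in 28 of 85 healthy wild-type members, with at most 6 in a cell, and 0 UMIs in 76 arthritic knockout members. The log2 ratio was -5.94, with an upper counting limit of -2.99. At 166 CPM (125 to 216) in healthy wild type this RNA stood 10.1-fold above a floor of 3 UMIs over the arthritic knockout group. It was seen in 8 of 14 precursor-range, 16 of 29 remaining and 4 of 42 mature-range cells of healthy wild type, and in 0 of 17, 0 of 14 and 0 of 45 of arthritic knockout. The C1q-rich cells held 0 of its UMIs. Outside the lineage it had 3 UMIs in healthy wild type and 0 in the other cells of every other library. Ebf1 itself was at 751 and 425 UMIs in members, a log2 ratio of 0.04 (-0.14 to 0.21).

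The other 4 libraries held too few members for ratios, and their cells are described by counts. The 10 members of healthy knockout were shallow (1000 to 1688 UMIs); all 10 carried Cd79a, Ighm, Igkc and Cd74, 6 carried Ms4a1, 6 carried Vpreb3, 8 were in the mature range and 0 cycled. They held 170 Igkc UMIs in all. The 1 member of arthritic wild type had 16 Igkc and 52 Cd74 UMIs, and the 2 members of isotype had 10 and 30 Igkc UMIs; all 3 were in the mature range. Both isotype members carried the heat shock gene Hspa1a, with 36 UMIs in all, and 8 of the 11 anti-Notch3 members carried it with 67 UMIs, against 9 of 85 in healthy wild type and 5 of 76 in arthritic knockout. Without the C1q-rich cells it was in 4 of 6 anti-Notch3 members, with 60 UMIs, and in 7 of 82 in healthy wild type. The 6 anti-Notch3 members outside the C1q-rich cells had 1 to 90 Igkc UMIs each and all carried Ms4a1; 5 of them were in the mature range. None of these 6 cycled; the 1 cycling anti-Notch3 member was a C1q-rich cell.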

How the data were processed

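Single-cell 3' transcriptomes of 6 libraries, 1 per group, were used. Per the submitters' processing notes the authors used Cell Ranger 3.0.2 and build mm10; the files deposited by the authors are raw UMI counts for 31017 genes, with no normalization. Every barcode held at least 501 genes, with the filter before deposit not given in the sources used here. Members were found on raw counts; the rule, ranges, lists and alternatives were chosen with earlier results of these data known. Counts were summed over cells per library and scaled to CPM; levels have exact Poisson and shares exact Clopper-Pearson intervals (95%), for counting error only. The ratio step was tested on simulated data. With 1 library per group no test was run. Shares were repeated after thinning to 1000 UMIs. Named genes are the genes of the rule, of 32 lists, the 10 most apart in each direction, and the 20 most above other cells: Igll1, Iglc1, Ms4a1, Pou2af1, Igkc, Cd79a, Vpreb3, Fcmr, Rag1, Pax5, Mzb1, Cxcr5, Cd79b, Iglc2, Iglc3 and 5 others; some named genes are not reported here. The split at 2 Vpreb3 UMIs was added later. Positions are from GENCODE vM21 on mm10. Python 3.11.15, numpy 2.4.6, scipy 1.17.1, pandas 2.3.3 and scanpy 1.11.5 (Scrublet, expected rate 0.03) were used.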

Additional observations from a re-analysis of the deposited data

Results flagged for a closer look

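The share of B-lineage cells differed between knockout and wild type in opposite directions in the healthy and arthritic pairs. Knockout minus wild type was -2.71 percentage points in healthy joints and 2.82 percentage points in arthritic joints. The share of precursor-range cells among all cells followed the same signs, with differences of -0.480 and 0.640 percentage points. Each value rests on 1 library per group, and the difference between the pairs was not tested. The B-lineage shares were in view when the cells were chosen. The tags in the deposited barcodes give healthy wild type the number 203 and arthritic knockout 63, next to 62 for arthritic wild type; healthy knockout has 151, isotype 69 and anti-Notch3 70. The meaning of these numbers was not stated. The erythroid gene sum was also highest in healthy wild type (4743 CPM) and arthritic knockout (2213 CPM), and its part in the shares was not tested.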

How the results depend on the processing

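Of 120 alternative values for shares and counts of genes, 104 lay close to the reported ones and 16 did not. Across 9 alternatives the B-lineage share stayed between 2.04% and 3.55% in healthy wild type, 2.28% and 3.24% in arthritic knockout, 0.12% and 0.28% in healthy knockout, and 0.242% and 1.11% in anti-Notch3. The lowest healthy wild-type share, 2.04%, came from thinning. The anti-Notch3 share was 1.11% with at least 2 Cd79 UMIs, 0.242% with at least 5 and 0.243% after thinning. Among healthy wild-type members, the precursor share was 7.06% after thinning and 30.6% with a threshold 1 UMI lower, and the mature share was 37.6% after thinning. Median-of-ratios scaling gave 232 genes higher in arthritic knockout. With every gene of at least 1 UMI 3890 genes were 2-fold apart, 1768 higher in arthritic knockout and 2122 in healthy wild type; with at least 50 UMIs 161 were, 44 and 117; in mature-range cells alone 343 were, 240 of them higher in healthy wild type. Leaving out cells rich in C1q or haemoglobin transcripts was chosen after seeing the data; the former turned the log2 ratio of Lyz2 to 2.17. The cause of the other shifts was not tested. No paired analysis was possible because each group is 1 library and the labels give no replicate numbers. Depth limits most values: members had a median of 2191 UMIs, and 24 members were spread over 4 libraries.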

Other observations

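Factors that B-lineage cells respond to were measured in the cells other than members. Cxcl12, which retains B precursors in marrow, was at 2981 CPM in healthy wild type, 2191 in arthritic wild type, 2077 in arthritic knockout, 1595 in healthy knockout, 1251 in anti-Notch3 and 1189 in isotype. Cxcl13, the follicle chemokine, was at 149 CPM in healthy wild type, 44.0 in anti-Notch3, 37.4 in arthritic knockout, 33.1 in healthy knockout, 12.8 in arthritic wild type and 5.34 in isotype. The interleukin 7 gene Il7 was low in every library, at 1.01 to 2.54 CPM, and the survival factor gene Tnfsf13b was at 1.79 to 4.99 CPM. Each of these 4 genes was highest in healthy wild type; arthritic knockout ranked the third for Cxcl12 and Cxcl13 and the fifth for Il7.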
